A study of Homo sapiens with 9 samples.

Results

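Binding of NKX2-1 and FOXA1 was examined at 4 genes of the gastrointestinal tract, HNF4A and the trefoil factor genes TFF1, TFF2 and TFF3. The peaks were taken by position alone, as all peaks that overlapped either of 2 windows of the human genome build hg18. The HNF4A window was chr20:42350000-42550000 in band 20q13.12, with the start of HNF4A at about 42.418 Mb. The trefoil window was chr21:42550000-42710000 in band 21q22.3, with TFF3, TFF2 and TFF1 in that order at about 42.60 to 42.66 Mb. The windows held 24 of the 125904 peaks in the series, 9 in the HNF4A window and 15 in the trefoil window. Of these 24 peaks, 15 were NKX2-1 peaks, which merged into 11 regions where they overlapped by at least 1 bp, and 9 were FOXA1 peaks.

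The series maps binding by chromatin immunoprecipitation and sequencing (ChIP-seq) in NCI-H1819, NCI-H2087 and NCI-H3122, which are 3 established human cell lines from lung adenocarcinoma, in all of which NKX2-1 is amplified per the labels. NKX2-1 was precipitated with the Bethyl antibody BL4000 in 2 libraries of H3122 and in 1 library each of H1819 and H2087, and FOXA1 with the Abcam antibody ab23738 in 1 library of H3122. No line without the amplification, treatment or loss of NKX2-1 is among the samples, and expression was not measured. The 5 lists held 7469 (H3122 replicate 1), 48071 (H3122 replicate 2), 13486 (H1819), 14441 (H2087) and 42437 (FOXA1) peaks. Each peak carries the authors' own score, which is used here only to rank peaks within a list. No source used here gives the read depth, so a list without a peak shows only that none was called there. The labels do not say that the H3122 pair came from separate cultures. The NKX2-1 gene lies outside both windows, and its own level in these lines was not measured.

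NKX2-1 is a homeodomain transcription factor that sets lung and thyroid identity. FOXA1 is a forkhead factor that can bind closed chromatin and takes part in the development of lung, liver and gut alike. HNF4A is a nuclear receptor that drives liver and intestinal genes and is started from alternative promoters. The trefoil factors are small secreted proteins that accompany mucins: TFF1 and TFF2 are typical of the stomach, and TFF3 of intestinal goblet cells. In mouse models of lung adenocarcinoma, loss of NKX2-1 is known to be followed by expression of a gastric set of genes, which is why these genes are of interest beside NKX2-1 binding.

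Promoters are shown for HNF4A, where no NKX2-1 peak lay near the start at about 42.418 Mb. The promoter set used held no entry for TFF1, TFF2 or TFF3, so their promoters were not searched. The sequences are the 250 bases before each of 2 starts that RefSeq gives for HNF4A in GRCh38.p14, 45.5 kb apart on the plus strand. The upstream one is chr20:44355449-44355698 and the downstream one chr20:44400989-44401238. These positions belong to another build than the peaks and cannot be set against them. It was therefore not determined which of the 2 is the start at about 42.418 Mb, from which all distances are taken. Capitals would mark the motifs searched, of which none was found.
HNF4A upstream promoter: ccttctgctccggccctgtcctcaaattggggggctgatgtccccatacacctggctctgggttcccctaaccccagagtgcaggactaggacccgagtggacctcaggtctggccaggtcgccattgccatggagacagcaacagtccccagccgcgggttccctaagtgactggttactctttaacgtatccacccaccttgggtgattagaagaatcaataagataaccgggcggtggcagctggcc
HNF4A downstream promoter: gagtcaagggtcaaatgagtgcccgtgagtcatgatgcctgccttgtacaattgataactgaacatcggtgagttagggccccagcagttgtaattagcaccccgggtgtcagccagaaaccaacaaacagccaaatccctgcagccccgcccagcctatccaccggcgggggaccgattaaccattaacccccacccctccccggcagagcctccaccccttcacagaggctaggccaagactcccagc

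Both strands were searched for the forkhead core TGTTTAC, its variant TGTTTGC and the NKX2-1 core CTCAAG; these cannot match at the same position. Among the same 250 bases of the 35116 promoters in the RefSeq set used, TGTTTAC was found in 2.98%, TGTTTGC in 3.23% and CTCAAG in 10.4%. The absence of a match says only that these letters are not in the stretches shown. The G and C content was 58.4% upstream and 58.0% downstream.

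At HNF4A the binding lay at a distance from the gene start, and the highest-scoring NKX2-1 and FOXA1 peaks of the window coincided. That region, chr20:42363997-42364947, lay about 54 kb before the start. Its NKX2-1 peak scored 122 in H3122 replicate 1, 454 in H3122 replicate 2 and 417 in H2087, and H1819 had none. The FOXA1 peak there scored 1469. Ranked within its own list, the region scored above 84.3% of peaks in replicate 1, 87.3% in replicate 2, 81.9% in H2087 and 97.5% in FOXA1. It was thus high in each list that held it, and highest in rank for FOXA1.

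The NKX2-1 peaks of this region lay mostly within the FOXA1 peak. The FOXA1 peak, 1092 bp wide, shared 606 bp with the replicate 2 peak of 817 bp, 639 bp with the replicate 1 peak and 740 bp with the H2087 peak. The midpoints of the NKX2-1 peaks lay 220.5, 348.5 and 263.5 bp from that of FOXA1 in replicate 1, replicate 2 and H2087. Over the 23492 overlapping pairs of replicate 2 and FOXA1 peaks in the genome, the median distance was 76.5 bp and the upper quartile 148.0 bp. The replicate 2 and FOXA1 midpoints at HNF4A were therefore farther apart than in most such pairs. Both peaks were also wide, the FOXA1 peak wider than 96.8% of its list and the replicate 2 peak wider than 74.1%. Distances were not compared at like width. Of all 1179 regions found in both H3122 replicates and H2087 but not in H1819, 59.6% had a FOXA1 peak, so its presence here was the commoner case.

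A second region, chr20:42372694-42373584, lay about 45 kb before the HNF4A start and had NKX2-1 peaks in H3122 only, with scores of 54.7 in replicate 1 and 141 in replicate 2. These scores ranked low in replicate 1, above 8.10% of its peaks, and midway in replicate 2, above 51.0%. There was no FOXA1 peak, although 64% of the 2911 regions found in both H3122 replicates alone had one. The replicate 1 score lies under 60, the lowest score of the other lists. At scores of at least 60 this region rested on replicate 2 alone.

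A further region, chr20:42537566-42538179, lay about 120 kb after the start and was found in H3122 replicate 2 only, with a score of 162. FOXA1 had 2 further peaks in the window, neither with NKX2-1. The first, chr20:42432488-42433265, lay about 15 kb after the start of HNF4A and scored 153, above 54.4% of the list. The other, chr20:42522833-42523265, lay about 105 kb after the start and scored 82.9. FOXA1 thus had the closest peak of any list to the HNF4A start at about 42.418 Mb. Distances to the other start were not taken.

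**Figure D1:**
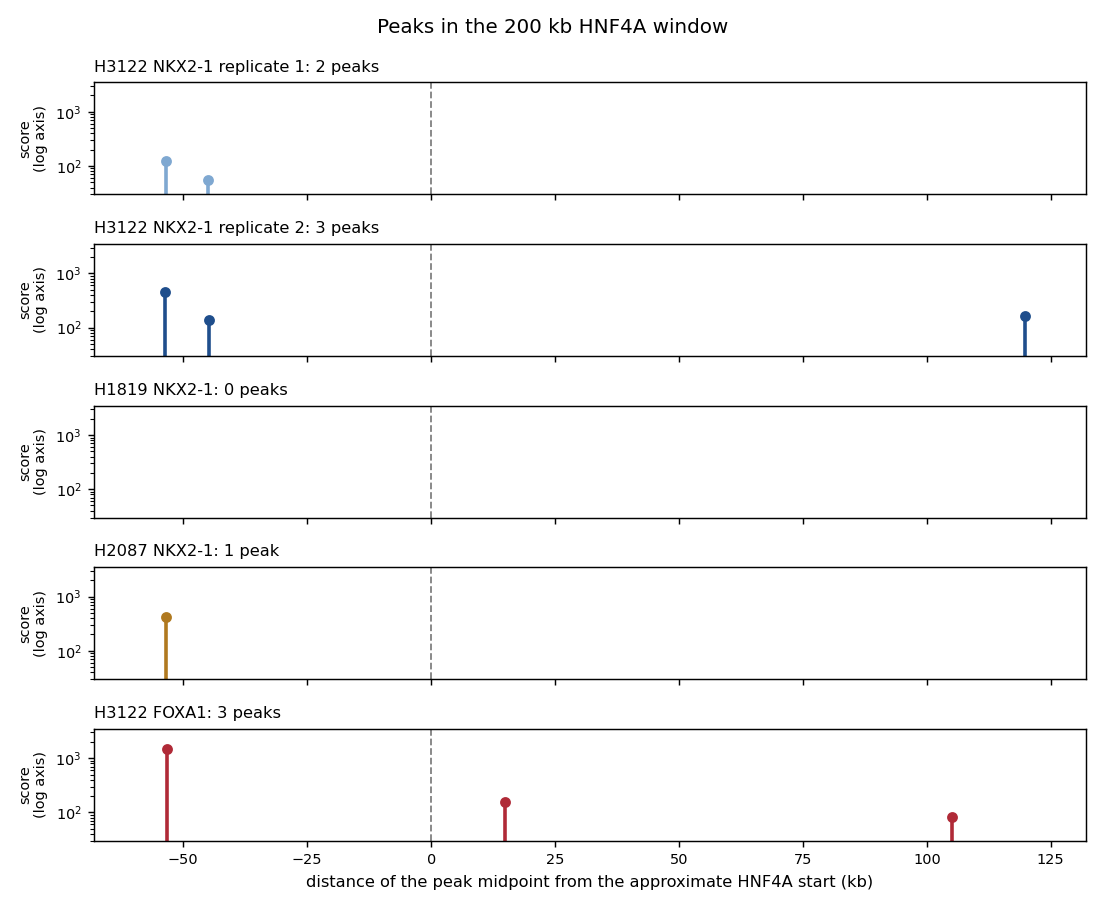
Peaks of the 5 lists in the HNF4A window: the horizontal axis gives the distance of each peak's midpoint from the approximate HNF4A start in kb (dashed line), and the height is the authors' score on a log axis. The peaks about 54 kb before the start line up in H3122 NKX2-1, H2087 NKX2-1 and FOXA1, H1819 has 0 peaks, and the closest peak to the start is that of FOXA1 about 15 kb after it.

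Between this region and the one 45 kb before the start, from 42373585 to 42537565, no NKX2-1 list had a peak. This stretch of 164.0 kb holds the HNF4A start at about 42.418 Mb. Stretches between NKX2-1 regions had a median length of 17.8 kb over the genome, and 5.73% were as long or longer, but those long stretches made up 42.1% of the bases between regions. Counted by bases, a position without NKX2-1 over such a length is therefore common, although few stretches are so long. Sequence that cannot be mapped was not left out of these bases. The nearest NKX2-1 peak to that HNF4A start was about 45 kb away in H3122, 54 kb away in H2087 and 145 kb away in H1819.

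The protein-coding neighbours of HNF4A in the RefSeq gene order are FITM2, which encodes a protein of lipid droplet formation, and R3HDML before it, and TTPAL and SERINC3 after it. A gene annotation of hg18 was not used here, so the regions before the start are not assigned to HNF4A, FITM2 or R3HDML. For the same reason peaks are not classed as exonic or intronic.

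At the trefoil genes H3122 replicate 2 and FOXA1 had several peaks, most of them of middling or low score. Regions at the TFF3 and TFF1 ends of the cluster were bound by both factors. The highest-scoring FOXA1 peak of the window was at the TFF3 end. There FOXA1 scored 441 on chr21:42608338-42608920, above 83.8% of its list. The NKX2-1 peak of replicate 2 that overlapped it, chr21:42608443-42609173, scored 109, above 38.5% of its list. These peaks shared 478 bp. No other NKX2-1 list had a peak there.

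At the TFF1 end, the region chr21:42659605-42660242 was the only one of the window with NKX2-1 in more than 1 list. It scored 173 in H3122 replicate 2 and 169.69 in H2087, and FOXA1 scored 238. Neither H3122 replicate 1 nor H1819 had a peak there. The replicate 2 and FOXA1 peaks covered nearly the same bases, sharing 623 bp with midpoints 5 bp apart, and the H2087 midpoint lay 50.5 bp from that of FOXA1. The scores ranked above 60% of peaks in replicate 2, 55.0% in H2087 and 69.2% in FOXA1, so they were ordinary for these lists. Of the 5419 regions found in replicate 2 and H2087 alone, 41.6% had a FOXA1 peak.

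Close to it lay 2 more replicate 2 peaks. The highest-scoring NKX2-1 peak of the window, chr21:42656468-42657143, scored 182 and overlapped a FOXA1 peak of score 89.2 by 363 bp. The other, chr21:42660534-42661009, scored 63.1 and had no FOXA1 peak. Together the 3 peaks spanned 4.54 kb. Of the 48061 replicate 2 peaks on chromosomes 1 to 22 and X, 5.93% belonged to 3 peaks within so short a span; this comparison was chosen after the positions were seen.

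Between the ends, replicate 2 and FOXA1 shared a region at chr21:42631041-42631603, with scores of 129 and 70.3 and midpoints 26.0 bp apart. Replicate 2 alone had a peak at chr21:42613047-42613520 with a score of 70.2, and FOXA1 alone one at chr21:42624088-42624582 with a score of 98.2. Past the TFF1 end, towards TMPRSS3, the next protein-coding gene in the RefSeq order, the factors shared no peak. Replicate 1 had its only peak of the window there, chr21:42664320-42664602, with a score of 64.9. FOXA1 had a peak of score 64.3 about 34 kb past that end, and replicate 2 a peak of score 104 about 48 kb past it. Towards ABCG1, the gene before TFF3 in that order, no list had a peak in the window before the FOXA1 peak at the TFF3 end.

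**Figure D2:**
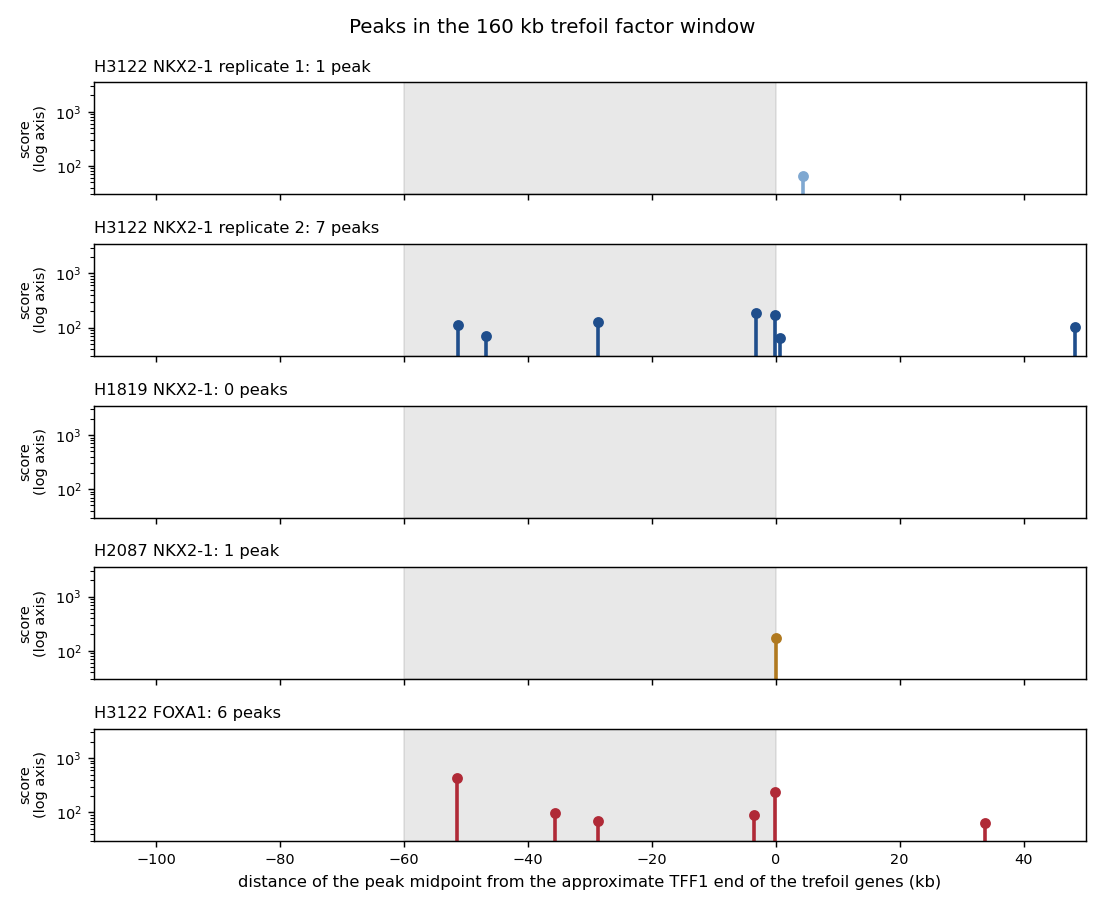
Peaks of the 5 lists in the trefoil window: the horizontal axis gives the distance of each peak's midpoint in kb from the approximate TFF1 end of the trefoil genes (right edge of the grey band, which spans the genes), and the height is the authors' score on a log axis. Replicate 2 and FOXA1 line up at 4 places within the band, H2087 joins them at its TFF1 end, and H1819 has 0 peaks.

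The H3122 NKX2-1 replicates shared no peak at the trefoil genes, which for replicate 2 peaks is near the genome share. Of the 7 replicate 2 peaks in that window none overlapped a replicate 1 peak (exact 95% Clopper-Pearson interval 0 to 41.0%), and the replicate 1 peak overlapped none of replicate 2. At HNF4A both replicate 1 peaks overlapped replicate 2. Over the genome 12.5% of replicate 2 peaks overlapped replicate 1, and 81.7% of replicate 1 peaks overlapped replicate 2, which is the far longer list. The 0 of 7 is thus near what the lists give elsewhere. The intervals cover counting error only, since peaks of a library are not replicates. Among 1282 regions of replicate 1 alone, 4.84% had a FOXA1 peak, and the region past TFF1 had none.

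Of the 11 regions, 3 had an NKX2-1 peak in 2 or more lists, and 28.2% of the 59679 regions in the genome did, a like share. The 3 were the regions 54 and 45 kb before HNF4A and the region at the TFF1 end. Both H2087 peaks overlapped a replicate 2 peak; 67.7% of all H2087 peaks did. Of the other 8 regions, 7 were found in replicate 2 alone and 1 in replicate 1 alone.

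Sharing between the factors was close to that of the whole lists. Of the 10 replicate 2 peaks in the windows, 5 overlapped FOXA1 (50.0%, exact interval 18.7 to 81.3), against 47.8% of all replicate 2 peaks. Of the 9 FOXA1 peaks, 5 overlapped replicate 2 (55.6%, 21.2 to 86.3), against 54.5% of all FOXA1 peaks. Over merged regions, 5 of 11 had FOXA1, 1 of 3 at HNF4A and 4 of 8 at the trefoil genes, against 39.7% of 59679 regions in the genome. Among the 7 regions of replicate 2 alone, 3 had FOXA1, and 46.6% of 31244 such regions did. None of these counts sets the windows apart from the rest of the genome. With so few peaks the intervals are wide, so a sizeable difference in sharing could have gone unseen.

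The peaks shared by both factors had the higher median scores, but the ranges overlapped with those of the other peaks. Shared and other peaks were not compared in this way over the whole lists. In replicate 2 the 5 peaks with FOXA1 scored from 109 to 454 with a median of 173, and the 5 without it from 63.1 to 162 with a median of 104. Among FOXA1 peaks, the 5 with NKX2-1 scored from 70.3 to 1469 with a median of 238, and the 4 without it from 64.3 to 153 with a median of 90.6. The median of all 10 replicate 2 peaks was 135, beside 137.5 over that list. The median of all 9 FOXA1 peaks was 98.2, beside 139 over the FOXA1 list.

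**Figure D3:**
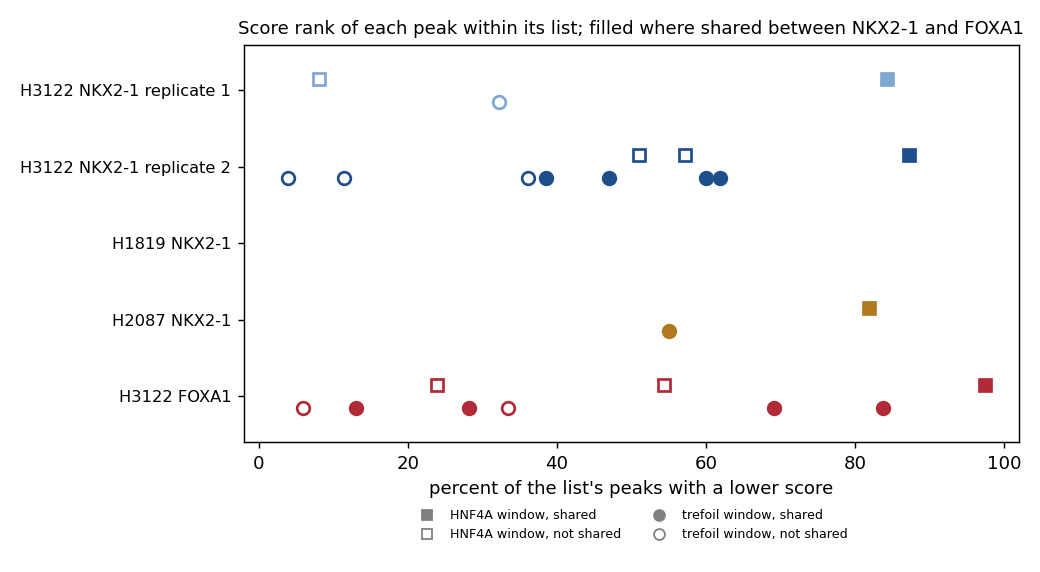
Rank of each peak of the 2 windows within its list, as the percent of the list's peaks with a lower score (horizontal axis), by list (vertical axis); squares are HNF4A peaks, circles trefoil peaks, and filled symbols are peaks shared between NKX2-1 and FOXA1. The shared region before HNF4A stands at 81.9% to 97.5% in the 4 lists that hold it, and trefoil peaks reach at most 83.8%.

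Peak numbers were set against all windows of the same width tiled over chromosomes 1 to 22 and X. At HNF4A replicate 1 had 2 peaks, 4.05 times its mean of 0.494 per 200 kb, and 11.2% of 15102 windows held 2 or more. Replicate 2 had 3 peaks, 0.943 times its mean, and 47.3% of windows held 3 or more. H2087 had 1 peak, 1.05 times its mean, and 36.3% of windows held any. FOXA1 had 3 peaks, 1.07 times its mean, and 42.7% of windows held as many. H1819 had 0 peaks against a mean of 0.892. Replicate 2, H2087 and FOXA1 were thus near their means at HNF4A, and the higher value of replicate 1 rests on 2 peaks.

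In the trefoil window every list but H1819 had more peaks than its mean, though replicate 1 and H2087 with 1 peak each. Replicate 2 had 7 peaks, 2.75 times its mean of 2.54 per 160 kb, and 9.72% of 18882 windows held 7 or more. FOXA1 had 6 peaks, 2.67 times its mean of 2.25, and 10.9% of windows held 6 or more. At scores of at least 100 the FOXA1 value was 1.36 times the mean, since 4 of its 6 peaks scored under 100, whereas that of replicate 2 was 2.96. Replicate 1 had 1 peak, 2.53 times its mean of 0.395, where 27.4% of windows held any; the peak scored under 100. H2087 had 1 peak, 1.31 times its mean of 0.764, where 32% of windows held any, and H1819 had 0 against a mean of 0.714. Among the 15068 windows with a peak of any list, 12.2% held 7 or more replicate 2 peaks.

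**Figure D4:**
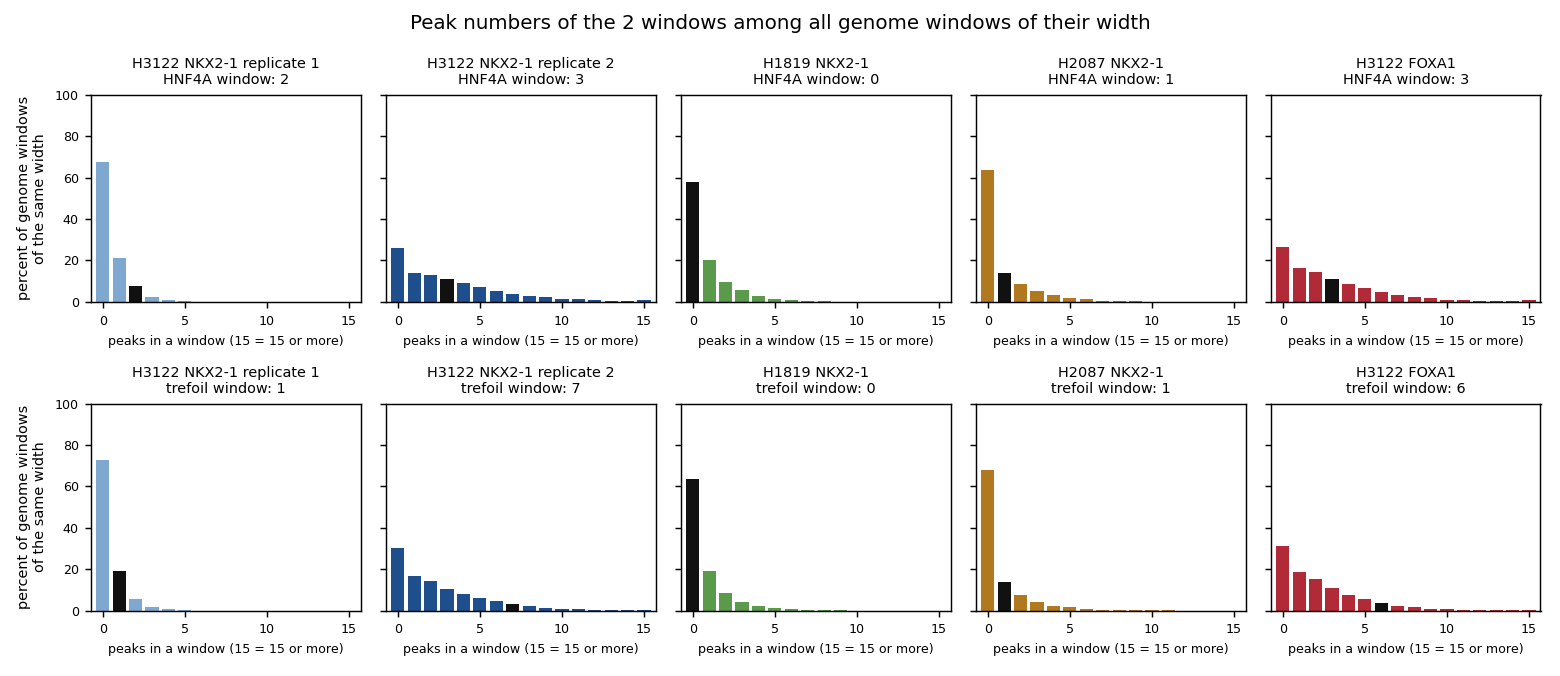
Share of genome windows (vertical axis, percent) by the number of peaks they hold (horizontal axis), for windows of 200 kb in the upper row and 160 kb in the lower row and for each list; the black bar marks the number in the HNF4A or the trefoil window. The black bar stands at 7 for replicate 2 and 6 for FOXA1 at the trefoil genes, and at 0 for H1819 in both rows.

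H1819 had no peak in either window. No H1819 peak was found in 58% of 200 kb windows and in 63.4% of 160 kb windows. Among windows that, like these, held both replicate 2 and H2087 peaks, 32.2% of 5326 at 200 kb and 36.4% of 5805 at 160 kb had none from H1819. The nearest H1819 peaks lay 76.8 kb before the HNF4A window with a score of 90.3 and 78.1 kb after it with a score of 160. Around the trefoil window they lay 199 kb before it, with a score of 97.3, and 91.6 kb after it, with a score of 117. The H1819 list was thus empty over 355 kb around HNF4A and 451 kb around the trefoil genes. Stretches of at least these lengths made up 68.9% and 61.4% of the bases between H1819 peaks, with sequence that cannot be mapped not left out. Over the whole genome the absence of H1819 peaks was thus the commoner state. Among windows with both replicate 2 and H2087 peaks it was the less common one.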

How the data were processed

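Bowtie and MACS 1.4.0 and the build hg18 are named in the submitters' processing notes. Each of the 5 precipitated libraries has 1 deposited peak list, in which the authors gave every peak a position and a score; its scale and the calling threshold are not stated. Replicate 1 of H3122 NKX2-1 held scores down to 50, the other lists down to 60. The 4 input libraries were not analysed here.

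Positions are given from 1. An overlap of 1 bp placed a peak in a window or made peaks shared, and NKX2-1 peaks of the 4 lists were merged on the same rule. Densities are relative to the mean of the list over chromosomes 1 to 22 and X, with lengths from circlize 0.4.16 in R 4.3.3. Other steps used Python 3.11.15, scipy 1.17.1 and matplotlib 3.10.9. Overlap, merging and tiling were tested on simulated data. No test between groups was run, since only H3122 NKX2-1 has 2 libraries with a peak list. The genes, windows and comparisons were chosen with earlier results of these data known. The rule for naming was to give every region and FOXA1 peak of the windows. Promoters came from a RefSeq set that held HNF4A but not TFF1, TFF2 or TFF3.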

Additional observations from a re-analysis of the deposited data

How the results depend on the processing

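Of 58 alternatives over 14 values, 42 stayed within 1.5 times the reported value and 16 did not; 6 of the 58, all at scores of at least 60, were chosen after the data were seen. With windows widened by 100 kb on each side, NKX2-1 regions at HNF4A rose from 3 to 11 and those with FOXA1 from 1 to 4, and regions at the trefoil genes from 8 to 14. Density over the list mean then became 1.12 and 1.25 in H1819 at HNF4A and the trefoil genes, and 2.02 in replicate 1 and 2.62 in H2087 at HNF4A. At scores of at least 100 it became 8.42 in replicate 1 and 1.42 in replicate 2 at HNF4A, and 0 in replicate 1 and 1.36 in FOXA1 at the trefoil genes. There 5 regions remained, 2 with FOXA1. At scores of at least 60, replicate 1 at HNF4A was at 2.65. Leaving out a H3122 NKX2-1 replicate gave 2 to 7 regions at the trefoil genes and 1 to 4 with FOXA1, the lower values without replicate 2. Counting by midpoint changed no value. With so few peaks a single peak moves most values. No paired analysis was possible because among the libraries with a peak list only H3122 NKX2-1 has more than 1 replicate.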
